A study of Mus musculus with 18 samples.

Results

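DNA replication and cell cycle genes were followed in RNA-seq libraries of mouse peritoneal macrophages. A list of 51 genes was taken by symbol out of 13598 genes with a value in these libraries. It holds 6 roles, which were origin licensing and the replicative helicase, the replication fork, nucleotide supply, D-type cyclins with their kinases, G1/S control, and G2/M with mitosis. Of the 51 genes, 47 had a value, and Mcm2, Mcm6, Cdt1 and Gins2 were not analysed here. Ccne2 and Bub1 had a value but did not pass the filter on low values, which left 45 genes for testing among 9707.

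The macrophages came from TLR4-WT mice, from TLR4-K730R mice and from TLR4-K810R mice. Both mutant strains are germline knock-ins made with CRISPR/Cas9 on a C57BL/6 background, in which the named lysine of Toll-like receptor 4 is replaced by arginine in every cell type. All animals had received thioglycollate, an irritant that draws monocyte-derived macrophages into the peritoneal cavity, so the control groups carry that treatment too. Each genotype was left as a control or was given LPS, a bacterial cell wall component and the ligand of TLR4, at 100 ng/ml for 6 h, with 3 libraries in each of the 6 groups. The sources used here do not say whether the 3 libraries came from separate animals, so p-values measure only the spread between these libraries, which may be technical.

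DNA replication starts when the MCM helicase is loaded at origins with the help of Cdc6 and Cdt1, a step that geminin blocks once S phase has begun. Polymerases then copy DNA while the PCNA clamp, loaded by replication factor C, holds them on the template. D-type cyclins with Cdk4 and Cdk6 open G1, E2F factors switch on the genes of S phase, and cyclin A, cyclin B, Cdk1 and the Aurora and Polo kinases carry the cell through mitosis. Thioglycollate-elicited macrophages are mature cells of which few divide.

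The macrophage markers Adgre1 (F4/80), Csf1r, Cd68 and Lyz2 were high in every library, with Lyz2 between 5944 and 13291 FPKM. Of the same list, Cd14 was above 0 in 1 of 18 libraries only, and Itgam was not analysed here. The LPS response genes (6 in all, Tnf, Il6, Il1b, Cxcl10, Nfkbia and Ptgs2) summed to between 72.6 and 113 FPKM in the 9 control libraries and between 1782 and 3971 FPKM in the 9 LPS libraries, so every library matched its treatment label. FPKM, a fragment count scaled for transcript length and library size, is a level per length and can be compared between genes. Cd3e, which defines T cells, stayed at or below 0.0172 FPKM in all libraries, and the T cell markers summed to at most 0.958 FPKM. The B cell markers summed to between 7.44 and 24.4 FPKM in control libraries and between 4.48 and 8.05 FPKM after LPS, and mast cell markers to between 0.517 and 6.24 FPKM before and between 8.25 and 25.4 FPKM after. Most of the mast cell sum after LPS was Hdc, at 5.91 to 20.3 FPKM in LPS libraries. Of 5 mast cell markers tested, Hdc was called higher in every genotype and Gata2 in TLR4-K730R, while the list median was 0.12 in TLR4-WT, 0.15 in TLR4-K730R and, with 3 of 5 below zero, -0.25 in TLR4-K810R. Read counts were not used here, so the depth was not assessed.

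Most members were expressed at a low level. The median member stood at 2.04 ± 0.17 FPKM (SD, n = 3) in TLR4-WT control libraries and at 2.10 ± 0.732 FPKM after LPS. In TLR4-K730R libraries the same medians were 2.01 ± 0.413 and 1.20 ± 0.0859 FPKM, and in TLR4-K810R libraries they were 4.40 ± 1.45 and 2.70 ± 0.145 FPKM. Pcna was far above the rest, followed by Cdk4 and, after LPS, Ccnd3. The heat map of the members shows a block of higher G2/M and nucleotide supply genes in the TLR4-K810R control libraries, which is strongest in library 3.

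**Figure D1:**
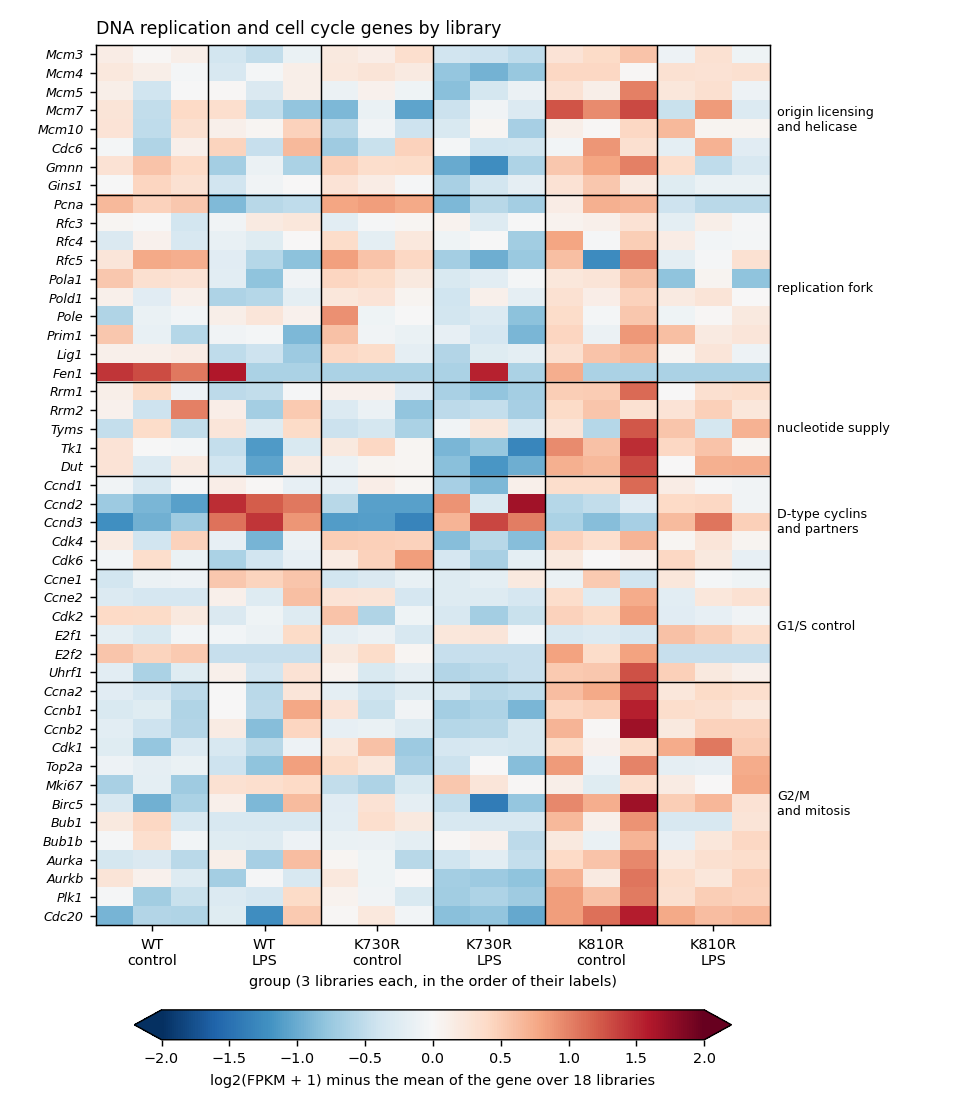
Each row is 1 of the 47 members with a value, grouped by role, and each column is 1 of the 18 libraries in 6 groups. Colour gives log2(FPKM + 1) minus the mean of that gene over the 18 libraries, so red is above and blue below its own mean, and Ccnd3 is red in every LPS library while Pcna is blue in every one.

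The first question was how LPS moved these genes in each genotype. Differences are given as log2 of FPKM + 1, a scale on which low genes seem to change less than they do, with their standard error (SE) from limma, and a gene is called when its Benjamini-Hochberg adjusted p over the 9707 genes lies below 0.01. In TLR4-WT macrophages 8 of the 45 members were called, 4 higher and 4 lower, where 34.3% of all genes were called, 10.4% higher and 23.9% lower. In TLR4-K730R macrophages 14 members were called, 2 higher and 12 lower, against 35.8% of all genes, 9.32% higher and 26.5% lower. In TLR4-K810R macrophages 6 members were called, 2 higher and 4 lower, against 28.8% of all genes, 9.08% higher and 19.7% lower. The share of members called lower in TLR4-K730R was near that background. These counts hold Ccnd2, which passed the filter through LPS libraries alone, and E2f2 and Pola1, which passed through control libraries alone. Leaving these genes out, 6, 12 and 4 members were called, with 3, 1 and 2 higher and 3, 11 and 2 lower. The median over all genes was itself below zero, at -0.28, -0.36 and -0.26, beside member medians of 0.00, -0.44 and -0.38. Scaling the libraries by the median of ratios brought the median of all genes to -0.01, -0.04 and -0.03. The split of called members, with no gene left out for its filter, was then 5 up and 1 down in TLR4-WT. It was 4 up and 5 down in TLR4-K730R, and 2 up and 1 down in TLR4-K810R.

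In bulk RNA a lower level can mean fewer cells that express a gene or less RNA of that gene per cell, and these cannot be told apart here. Markers of other cells moved as well. With LPS the 7 mesothelium and fibroblast markers tested were all above zero in TLR4-WT (median log2 difference 0.88), while 6 of 7 were below zero in TLR4-K730R (-0.41) and 6 in TLR4-K810R (-0.65). Of 4 intestinal epithelium markers tested, 3 were called lower in TLR4-K810R, with a median of -1.97, and none was called in the other genotypes. Of 6 macrophage markers tested, 4 were called lower and 1 higher in TLR4-WT, 4 lower and 1 higher in TLR4-K730R, and 1 lower and 2 higher in TLR4-K810R. The part of any of these cells, or of the B and mast cells above, in the LPS differences was not tested.

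Pcna and Gmnn were lower and Ccnd3 was higher with LPS in each of the 3 genotypes. Pcna and Ccnd3 kept their calls under median-of-ratios scaling and with any 1 library left out.

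Among the fork genes, Pcna (chromosome 2, 132249162 to 132253314, minus strand, GRCm38) encodes the sliding clamp of DNA polymerases, which also serves DNA repair. Its level was 217, 191 and 201 FPKM in the TLR4-WT control libraries and 73.9, 93.6 and 96.1 FPKM after LPS. In TLR4-K730R it went from 237, 247 and 234 FPKM to 73.4, 93.1 and 85.3 FPKM, and in TLR4-K810R from 153, 227 and 220 FPKM to 103, 94.0 and 94.7 FPKM. Every LPS library lay below every control library. The log2 difference was -1.20 (SE 0.14) in TLR4-WT with an adjusted p of 5.07e-06, -1.51 in TLR4-K730R with 3.9e-07, and -1.01 in TLR4-K810R with 3.8e-05.

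The other fork genes moved less or were too sparse to be called in most comparisons. Of the 10 fork genes tested, 2 were called lower in TLR4-WT, 2 in TLR4-K730R and, leaving out Pola1, 1 in TLR4-K810R, beside the 23.9%, 26.5% and 19.7% of all genes called lower. None was called higher. Lig1, the ligase that joins Okazaki fragments, was at 2.70, 2.68 and 2.82 FPKM in TLR4-WT control libraries and 1.42, 1.58 and 1.08 FPKM after LPS (log2 difference -0.67, adjusted p 0.00555). Rfc5, a subunit of the clamp loader, was at 5.20, 4.21 and 3.65 FPKM in TLR4-K730R control libraries and at 1.19, 0.78 and 1.08 FPKM after LPS (log2 difference -1.40, adjusted p 0.00948). Pola1, the catalytic subunit of the polymerase that makes primers with primase, was at 1.04, 1.10 and 1.62 FPKM in TLR4-K810R control libraries, and after LPS it was listed at 0, at 0.816 and at 0. No test is given for Pola1, which passed the filter through control libraries alone. The libraries of Lig1 and Rfc5 did not overlap, but each call was lost when 5 or more of the 6 libraries were left out one at a time, and also under median-of-ratios scaling. Fen1, the flap endonuclease, was listed in 6 of 18 libraries only and is not interpreted.

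For Lig1, Rfc5, Mcm7, Cdk6, Ccnd2 and Ccnd3 the value rests on first-exon rows, since the last-exon rows of these genes averaged between 0 and 0.521 FPKM.

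Of 8 licensing factors tested, 3 were called lower in TLR4-K730R, where 26.5% of all genes were, and 1 in each of the other genotypes, and none was called higher. Gmnn (chromosome 13, 24751845 to 24761923, minus strand) encodes geminin, the inhibitor of Cdt1 that is stable from S phase to mitosis. It stood at 5.11, 6.45 and 5.65 FPKM in TLR4-WT control libraries and at 2.14, 3.64 and 2.24 FPKM after LPS. In TLR4-K730R its level was 6.01, 5.40 and 5.47 FPKM before and 1.51, 1.12 and 2.27 FPKM after LPS, and in TLR4-K810R 6.27, 7.69 and 9.07 FPKM before and 5.41, 2.52 and 3.03 FPKM after. No LPS library reached a control library of its genotype. Differences were -0.89 (SE 0.22, adjusted p 0.0039) in TLR4-WT, -1.35 (adjusted p 0.000123) in TLR4-K730R and -0.94 (adjusted p 0.00325) in TLR4-K810R, and median-of-ratios scaling ended the calls in TLR4-WT and TLR4-K810R. In each of these genotypes the Gmnn call was also lost without any 1 of 4 of the 6 libraries, last-exon rows alone ended it in TLR4-WT and TLR4-K730R, and a fit of the groups compared ended it in TLR4-K810R.

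Mcm4 (chromosome 16, 15623897 to 15637400, minus strand), a subunit of the helicase, was called lower in TLR4-K730R. There it was at 6.21, 6.46 and 6.03 FPKM in control libraries and at 2.65, 2.24 and 2.68 FPKM after LPS, a log2 difference of -1.04 (SE 0.14, adjusted p 1.23e-05). In TLR4-WT it was at 6.19, 5.77 and 5.07 FPKM before and 3.96, 5.04 and 5.76 FPKM after LPS, and in TLR4-K810R at 7.31, 7.31 and 5.33 FPKM before and 6.72, 6.57 and 6.74 FPKM after. Control and LPS libraries overlapped in these 2 genotypes. The difference in response between TLR4-K730R and TLR4-WT was -0.86 (SE 0.19) and did not pass, with an adjusted p of 0.212. Mcm3, another helicase subunit, was the last licensing gene called in TLR4-K730R, at 13 ± 1.05 FPKM before and 7.86 ± 0.364 FPKM after LPS (SD, n = 3), a call that median-of-ratios scaling ended.

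Of 5 nucleotide supply genes, Tk1, Dut and Rrm1 were called lower in TLR4-K730R, where 26.5% of all genes were. None passed in TLR4-WT, where 4 of 5 were below zero with a median of -0.48, or in TLR4-K810R, where all 5 were, with a median of -0.41, and no difference in response between genotypes was called. Tk1, the thymidine kinase of the salvage route, was at 3.71, 4.47 and 3.24 FPKM in control libraries and at 1.17, 1.43 and 0.67 FPKM after LPS, a log2 difference of -1.21 (SE 0.25, adjusted p 0.000815). The same gene was at 3.96, 3.10 and 2.98 FPKM before and 1.95, 0.876 and 2.33 FPKM after LPS in TLR4-WT, where it was not called though the libraries did not overlap. In TLR4-K810R it was at 6.90, 5.14 and 10.4 FPKM before and 4.47, 5.09 and 3.22 FPKM after. Neither Rrm2, the regulated subunit of ribonucleotide reductase, nor Tyms, which makes thymidylate, was called in any genotype. Dut, which removes dUTP, and Rrm1, the large reductase subunit, lost their calls under median-of-ratios scaling. The Dut call was also lost without any 1 of the 6 libraries and with first-exon or last-exon rows alone. That of Rrm1 was lost without any 1 of 5 of the 6 libraries.

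Of the D-type cyclins, Ccnd3 went the other way. Ccnd3 (chromosome 17, 47505051 to 47599691, plus strand), a partner of Cdk4 and Cdk6, was at 8.44, 10.3 and 12.4 FPKM in TLR4-WT control libraries and at 45.7, 58.1 and 39.6 FPKM after LPS. In TLR4-K730R it was at 9.13, 9.22 and 7.82 FPKM before and 34.3, 54.7 and 43.7 FPKM after LPS, and in TLR4-K810R at 13.2, 11.2 and 12.8 FPKM before and 33.1, 45.1 and 29.6 FPKM after. All 9 LPS libraries lay above all 9 control libraries. Ccnd3 rose by a log2 difference of 2.10 (SE 0.19, adjusted p 2.63e-07) in TLR4-WT, 2.20 (adjusted p 1.48e-07) in TLR4-K730R and 1.45 (adjusted p 1.84e-05) in TLR4-K810R.

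Ccnd2 (chromosome 6, 127125162 to 127152193, minus strand) was nearly absent from control libraries of TLR4-WT, at 0.283 and 0.128 FPKM and listed at 0 in library 3, and reached 4.92, 3.90 and 3.40 FPKM with LPS. In TLR4-K730R it was at 0.442 FPKM in one control library and listed at 0 in the others, and was at 2.94, 0.719 and 5.81 FPKM after LPS. In TLR4-K810R it was at 0.431, 0.506 and 0.805 FPKM before and 1.80, 1.82 and 1.02 FPKM after. LPS libraries were above control libraries in each genotype. All libraries at or above 1 FPKM were LPS libraries, so Ccnd2 could pass the filter only by being high there, and no test of its LPS difference is given.

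Ccnd1, the remaining D-type cyclin, was not called in any comparison. It was at 2.85, 2.25 and 3.01 FPKM in TLR4-WT control libraries and 3.43, 3.11 and 2.61 FPKM after LPS. Its levels were 2.64, 3.43 and 3.16 FPKM before and 1.56, 1.18 and 3.36 FPKM after LPS in TLR4-K730R, and 4.20, 4.21 and 7.86 FPKM before and 3.48, 3 and 2.87 FPKM after in TLR4-K810R. Control and LPS libraries overlapped in TLR4-WT and TLR4-K730R.

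Both D-cyclin kinases were called lower in TLR4-K730R, where 26.5% of all genes were. Cdk4 (chromosome 10, 127063534 to 127067920, plus strand) was at 43.2, 43.1 and 42.6 FPKM before and at 16.4, 20.5 and 16.4 FPKM after LPS, a log2 difference of -1.23 (SE 0.21, adjusted p 0.000185). TLR4-WT libraries overlapped, with 34.6, 23.2 and 42.4 FPKM before and 27.2, 15.6 and 28.2 FPKM after, and TLR4-K810R libraries were at 42.5, 38.7 and 49.6 FPKM before and 31.6, 36.2 and 31.8 FPKM after. Cdk6 fell from 10.7 ± 2.75 to 5.32 ± 0.989 FPKM in TLR4-K730R (SD, n = 3), and this call was lost under median-of-ratios scaling and in a fit of these groups alone.

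**Figure D2:**
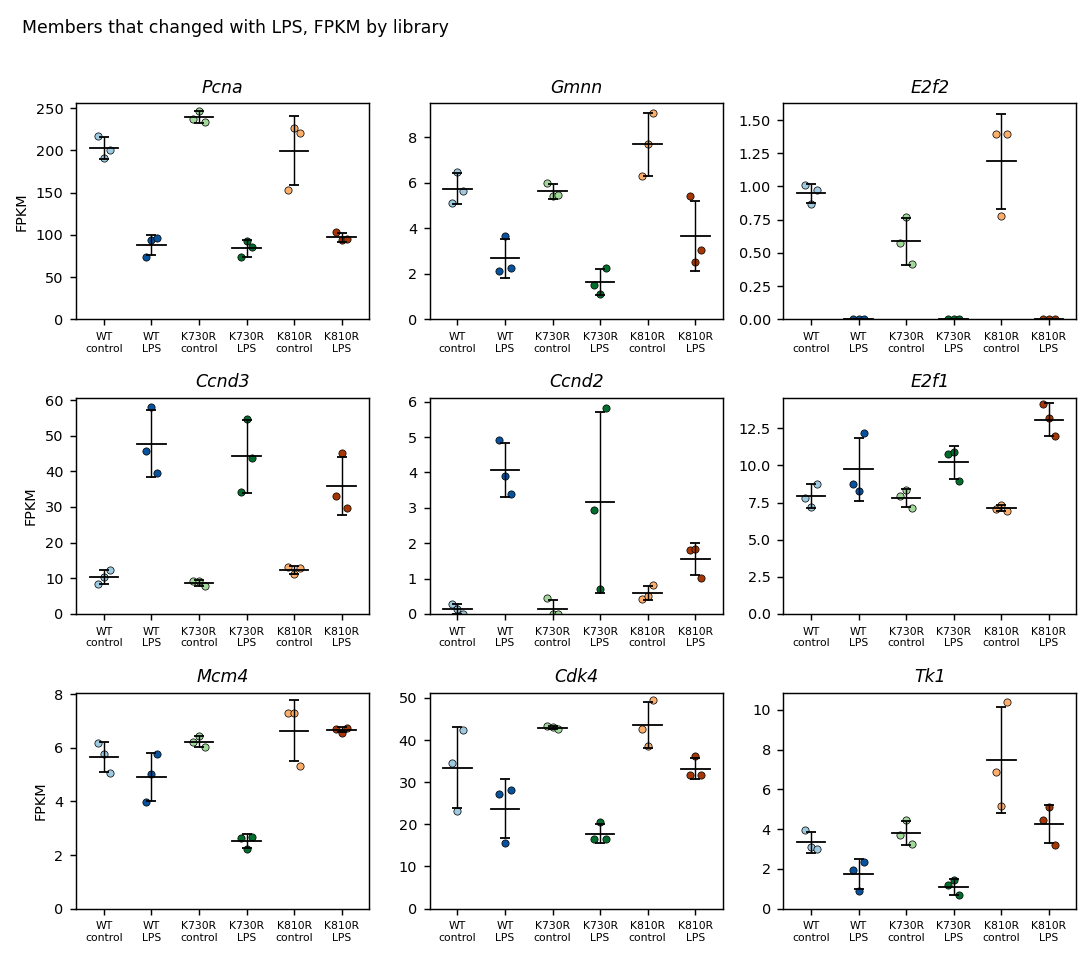
Points are single libraries in FPKM (vertical axis, from 0) in the 6 groups, with the mean as a horizontal line and the SD as error bars (n = 3). Pcna, Gmnn and E2f2 sit lower and Ccnd3 sits higher in the LPS groups of all genotypes, while Mcm4 and Tk1 are lowest in TLR4-K730R after LPS.

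Of the genes of G1/S control, E2f2 was listed at 0 after LPS and E2f1 was called higher in TLR4-K810R. E2f2 (chromosome 4, 136172394 to 136196057, plus strand), an activating E2F factor, was at 1.01, 0.87 and 0.973 FPKM in TLR4-WT control libraries, 0.577, 0.77 and 0.416 FPKM in TLR4-K730R and 1.40, 0.778 and 1.40 FPKM in TLR4-K810R. It was listed at 0 in all 9 LPS libraries, which can be a failed estimate, and no fold is given. Only 3 libraries, all of them controls, reached 1 FPKM, so E2f2 passed the filter through the controls alone and no test is given. E2f1 (chromosome 2, 154559407 to 154569892, minus strand), a second activator, was called higher in TLR4-K810R, from 7.09, 7.37 and 6.97 FPKM to 14.1, 13.2 and 12 FPKM, a log2 difference of 0.79 (SE 0.13, adjusted p 0.000205). In TLR4-WT E2f1 was at 7.81, 7.21 and 8.78 FPKM before and 8.77, 8.30 and 12.2 FPKM after LPS, and in TLR4-K730R at 7.95, 8.37 and 7.13 FPKM before and 10.8, 10.9 and 8.95 FPKM after. E2f1 libraries did not overlap in TLR4-K730R either, but it was not called there.

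Ccne1, the cyclin that drives Cdk2 into S phase, was called higher in TLR4-WT, where it was at 0.873, 1.23 and 1.26 FPKM before and 2.54, 2.32 and 2.57 FPKM after LPS. The log2 difference was 0.72 (SE 0.21) with an adjusted p of 0.00964, and leaving out any 1 of the 6 libraries ended the call.

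Of 12 mitotic genes tested with LPS, 1 was called in TLR4-WT (Mki67, higher), 1 in TLR4-K730R (Aurkb, lower) and none in TLR4-K810R, beside the 34.3%, 35.8% and 28.8% of all genes called. Mki67 (chromosome 7, 135689784 to 135716361, minus strand) encodes Ki-67, the coat protein of mitotic chromosomes used to mark cycling cells. It was at 1.25, 2.09 and 1.16 FPKM before and 3.36, 3.46 and 3.64 FPKM after LPS in TLR4-WT. In TLR4-K730R it was at 1.51, 1.31 and 1.85 FPKM before and 4.14, 3.17 and 2.58 FPKM after, and in TLR4-K810R at 2.84, 1.98 and 3.47 FPKM before and 2.98, 2.54 and 5.03 FPKM after. LPS libraries were above control libraries in TLR4-WT and TLR4-K730R and overlapped with them in TLR4-K810R. The log2 difference was 0.86 (SE 0.22, adjusted p 0.00378) in TLR4-WT, a call that was lost without any 1 of 5 of the 6 libraries, and it was 0.74 (adjusted p 0.01, not below the threshold) in TLR4-K730R and 0.24 (adjusted p 0.39) in TLR4-K810R.

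Top2a, the topoisomerase that untangles replicated chromosomes, did not follow Mki67. It was at 2.32, 2.14 and 2.25 FPKM before and 1.67, 1.03 and 5.32 FPKM after LPS in TLR4-WT, at 3.65, 3.17 and 1.25 FPKM before and 1.63, 2.59 and 0.966 FPKM after in TLR4-K730R, and at 5.46, 2.32 and 6.04 FPKM before and 2.14, 2.17 and 4.94 FPKM after in TLR4-K810R. All 3 pairs of groups overlapped, and the adjusted p was 0.994, 0.429 and 0.41. Aurkb, the kinase of the chromosomal passenger complex, had an adjusted p of 0.00927 in TLR4-K730R, and its call was lost without any 1 of the 6 libraries.

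Among TLR4-WT LPS libraries the mitotic genes differed widely. The 13 G2/M members with a value summed to 21.6, 13.8 and 35.8 FPKM in libraries 1, 2 and 3, beside 18.4, 18.1 and 14.9 FPKM in the control libraries. Summed over 9 markers of mesothelium, which lines the peritoneal cavity, and of fibroblasts, the same LPS libraries were at 108, 43.8 and 145 FPKM. This was the same order as that of the mitotic genes. Col1a1, Col1a2, Col3a1 and Dcn carry most of this sum, while over all libraries Msln, Upk3b, Wt1 and Krt19 averaged 2.29 FPKM or less. The part of these cells in the mitotic values was not tested.

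Other cell cycle genes were counted on a list of 99, of which 85 were tested. With LPS, 8 rose and 12 fell in TLR4-WT, while 7 rose and 19 fell in TLR4-K730R, and 4 rose and 13 fell in TLR4-K810R, beside the 34.3%, 35.8% and 28.8% of all genes called. The largest rises in TLR4-WT were of Pola2, the second subunit of the primer-making polymerase (2.35), Timeless, a fork protection factor (1.68), Pttg1, the separase inhibitor securin (1.46), and Mdm2, the ligase that degrades p53 (1.23). The largest falls were of the stress-induced Sesn1 (-3.81), the CDK inhibitor Cdkn1c (-2.14), the checkpoint kinase Chek2 (-1.56) and the clamp loader subunit Rfc2 (-1.08), all in log2. Pola2, Timeless and Mdm2 were called higher and Sesn1, Cdkn1c, Chek2 and Rfc2 lower in both mutants too. In TLR4-K730R the 4 largest rises also held E2f5 (0.97), and the largest falls held Cenpa (-1.73) and Cdc25b (-1.53). Tfdp2 was listed at 0 in all 3 TLR4-K730R LPS libraries and is given no fold. In TLR4-K810R they held E2f8 (0.56) among the rises and Cenpa (-1.77) and Gadd45g (-1.59) among the falls. Calls of Tfdp2 in TLR4-K730R and of Timeless and E2f8 in TLR4-K810R were lost when most of the single libraries were left out. The values of Sesn1, Chek2, Timeless, Cenpa, Cdc25b and Tfdp2 rest on first-exon rows, since their last-exon rows averaged at most 0.0732 FPKM.

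Cdkn1a, which encodes the CDK inhibitor p21, was at 33.6, 37.5 and 38.1 FPKM before and 59.2, 64.5 and 52.0 FPKM after LPS in TLR4-WT. In TLR4-K730R it was at 37.4, 35.2 and 37.4 FPKM before and 52.9, 53.2 and 63.3 FPKM after, and in TLR4-K810R at 29.3, 31.0 and 28.9 FPKM before and 39.5, 33.0 and 41.0 FPKM after. Every LPS library lay above every control library of its genotype. Cdkn1a differed by 0.67 (SE 0.11, adjusted p 0.000134) in TLR4-WT and 0.61 (adjusted p 0.000327) in TLR4-K730R, and 0.33 (adjusted p 0.0263) in TLR4-K810R. The difference in response between TLR4-K810R and TLR4-WT had an adjusted p of 0.374.

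The next question was whether the mutations alone moved the genes in control macrophages. In TLR4-K810R against TLR4-WT, 5 of 45 members were called higher and none lower, where 1.58% of all genes were called and 0.927% were called higher and 0.649% lower. Of the 45, 40 had a difference above zero, with a median of 0.48 beside 0.07 over all genes. Called were Cdc20, Birc5, Ccna2 and Plk1 of G2/M and Uhrf1 of G1/S control. All 12 tested G2/M members had a difference above zero, with a median of 1.12. Medians were 0.58 for nucleotide supply, 0.41 for the D-type cyclins and their kinases, 0.33 for licensing, 0.29 for the fork and 0.20 for G1/S control.

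Cdc20 (chromosome 4, 118432901 to 118437352, minus strand), the activator of the anaphase-promoting complex, was at 1.25, 1.86 and 1.83 FPKM in TLR4-WT control libraries and at 6.68, 8.26 and 11.8 FPKM in TLR4-K810R, a log2 difference of 1.88 (SE 0.31, adjusted p 0.00291). Birc5, which encodes survivin of the chromosomal passenger complex, was at 1.21, 0.418 and 0.781 FPKM and at 4.37, 3.56 and 7.89 FPKM, a log2 difference of 1.76 (SE 0.35, adjusted p 0.00922). Ccna2 (chromosome 3, 36564865 to 36572150, minus strand), the cyclin of S phase and early mitosis, was at 0.987, 0.84 and 0.622 FPKM and at 2.56, 2.95 and 4.91 FPKM, a log2 difference of 1.27 (SE 0.21, adjusted p 0.00279). For these 3 genes no TLR4-K810R control library fell into the range of TLR4-WT.

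Plk1, the Polo kinase of mitotic entry, was at 1.92, 0.839 and 1.18 FPKM in TLR4-WT and at 4.33, 3.45 and 5.11 FPKM in TLR4-K810R (log2 difference 1.21, adjusted p 0.00336). Uhrf1, which brings the maintenance methyltransferase to newly copied DNA, was at 2.01, 1.23 and 1.92 FPKM and at 3.98, 4.04 and 7.39 FPKM (log2 difference 1.14, adjusted p 0.00725). The libraries of both genes were again apart. In each of the 5 genes TLR4-K810R control library 3 was the highest.

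**Figure D3:**
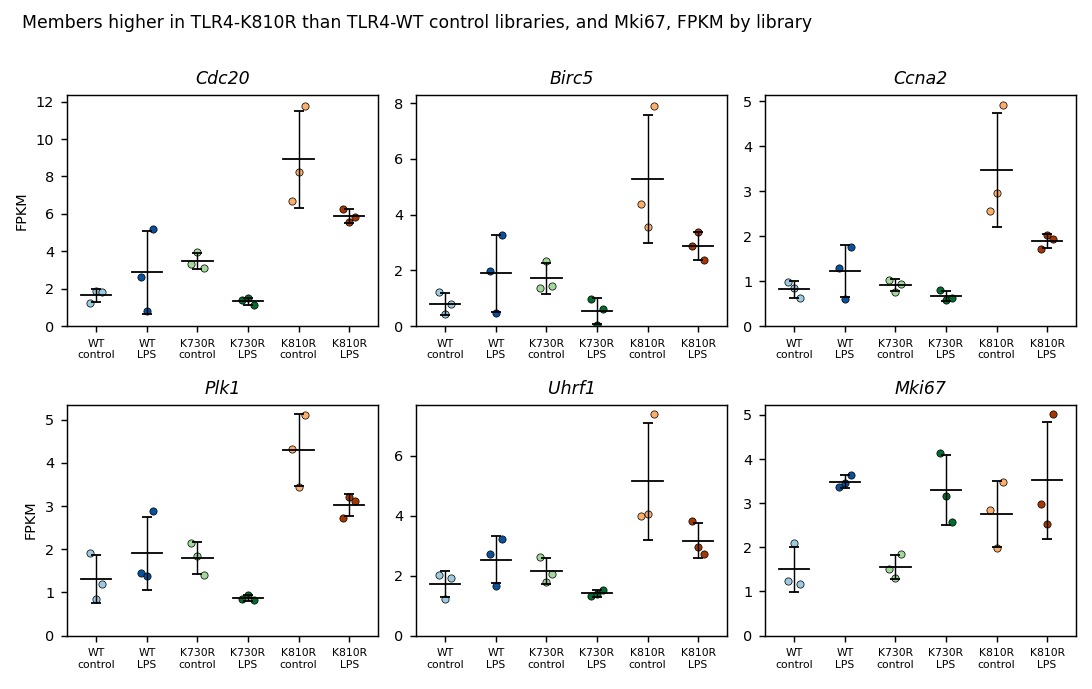
Points are single libraries in FPKM (vertical axis, from 0) in the 6 groups, with the mean as a horizontal line and the SD as error bars (n = 3). For Cdc20, Birc5, Ccna2, Plk1 and Uhrf1 the TLR4-K810R control libraries lie above the TLR4-WT control libraries, and library 3 is the highest, while Mki67 rises with LPS in TLR4-WT.

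Among G2/M members that were not called, the B-type cyclins that partner Cdk1 had differences of a like size. Ccnb1 was at 1.01, 1.09 and 0.64 FPKM in TLR4-WT control libraries and at 2.33, 2.45 and 6.27 FPKM in TLR4-K810R (log2 difference 1.20, adjusted p 0.0484). Ccnb2 was at 1.33, 1.03 and 0.788 FPKM and at 3.32, 1.75 and 7.76 FPKM (log2 difference 1.21, adjusted p 0.0719). Aurka, the kinase of spindle poles, differed by 1.03 (adjusted p 0.0377), and Bub1b, a spindle checkpoint kinase, by 0.17 (adjusted p 0.796) with overlapping libraries.

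Mki67 and Top2a were not among the called genes, with an adjusted p of 0.189 and 0.48, and the TLR4-WT and TLR4-K810R control libraries overlapped for both. Of 25 other mitosis genes tested, 23 were above zero in this comparison, as were 5864 of all 9707 genes, and 2 were called higher, beside 0.927% of all genes, Ube2c (1.29, adjusted p 0.003), the ubiquitin-conjugating partner of the anaphase-promoting complex, and Racgap1 (1.18, adjusted p 0.00873), a cytokinesis factor. None was called lower. Racgap1 lost its call without 5 of the 6 libraries in turn and under 8 of 12 alternatives, and Ube2c without 4 of the 6 libraries and in a fit of these groups alone. Pcna was not higher in TLR4-K810R control libraries (log2 difference -0.04, adjusted p 0.949).

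The count of 5 depended on single libraries, while the log2 differences with any 1 library left out stayed at or above 1.68 for Cdc20, 1.48 for Birc5, 1.05 for Ccna2, 1.06 for Plk1 and 0.89 for Uhrf1. The count was 0 without TLR4-K810R control library 3, 0 without TLR4-WT control library 2 or 3, 2 without TLR4-WT control library 1, 3 without TLR4-K810R control library 1 and 4 without TLR4-K810R control library 2. A fit of these 2 groups alone called none, with 21 of the 45 members and 13.9% of all genes at an unadjusted p below 0.05. Birc5 was also not called under median-of-ratios scaling, which kept the other 4.

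Markers of other cells moved with the mitotic genes. Summed FPKM of the 9 mesothelium and fibroblast markers was 49.1, 36.6 and 32.6 in TLR4-WT control libraries and 134, 118 and 286 in TLR4-K810R control libraries, and the G2/M members summed to 18.4, 18.1 and 14.9 FPKM and to 43.7, 35.7 and 69.9 FPKM in the same libraries. All 7 markers tested were above zero, 4 of them called higher (Col1a1, Col1a2, Dcn and Wt1), with a median log2 difference of 1.88. The intestinal epithelium markers, 8 with a value, with Fabp1 and Tff3 called higher, summed to between 0.118 and 0.594 FPKM in TLR4-WT and between 12.1 and 56.9 FPKM in TLR4-K810R control libraries. TLR4-K810R control library 3 had the highest sum on both marker lists and for the G2/M members. None of the 9 mesothelium and fibroblast markers was listed at 0 throughout a group, and Adgre1 was at 172, 148 and 192 FPKM in TLR4-K810R and 209, 199 and 253 FPKM in TLR4-WT control libraries. All 6 macrophage markers tested were below zero in this comparison, with a median of -0.20, and none was called. Of 4 resident peritoneal macrophage markers tested, 1 was called higher and 3 were below zero. In TLR4-K730R control libraries the intestinal epithelium markers summed to between 8.42 and 39.3 FPKM and the G2/M members to at most 24.3 FPKM, and none of these members was called there. Against TLR4-WT, 11 of 12 G2/M members tested were above zero there, with a median of 0.20. So were all 7 mesothelium and fibroblast markers tested, with a median of 0.64. The part of such cells in the result was not tested.

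**Figure D4:**
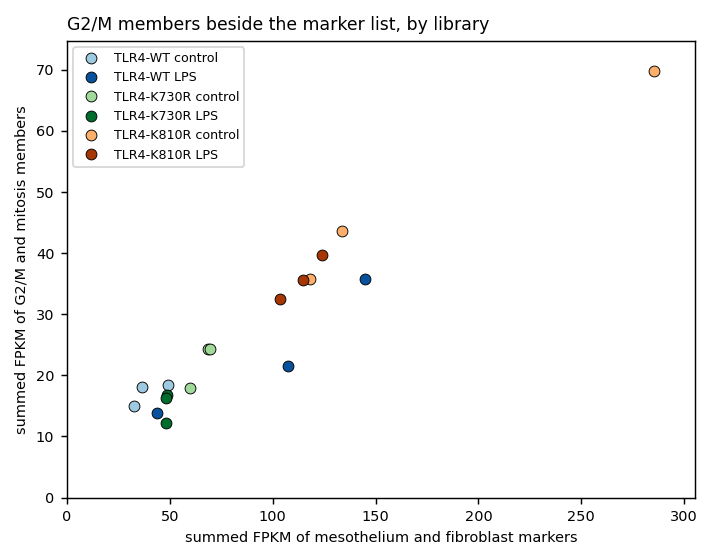
Each point is 1 of 18 libraries, coloured by group, with the summed FPKM of 9 mesothelium and fibroblast markers on the horizontal axis and of the 13 G2/M members with a value on the vertical axis. TLR4-K810R control library 3 stands apart at 286 and 69.9 FPKM, and the TLR4-WT LPS libraries spread from 43.8 to 145 FPKM on the horizontal axis.

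In TLR4-K730R against TLR4-WT control macrophages limma called none of the 45 members, where 0.268% of all genes were called, and 3 members had an unadjusted p below 0.05, as had 7.70% of all genes. The smallest p values were those of Fen1, Cdc20 and Cdk6. Cdc20 was at 3.34, 3.95 and 3.12 FPKM in TLR4-K730R, above the TLR4-WT libraries, with a log2 difference of 0.76 and an adjusted p of 0.577. Cdk6 was at 8.24, 10.3 and 13.7 FPKM beside 6.90, 9.44 and 6.51 FPKM in TLR4-WT, which overlap (adjusted p 0.628). Fen1 was listed at 0 in all 3 TLR4-K730R control libraries and at 3.20, 2.86 and 2.22 FPKM in TLR4-WT (adjusted p 0.34), and with so many zeros in other groups this may be a failed estimate. The mesothelium and fibroblast markers summed to between 59.8 and 69.4 FPKM in these TLR4-K730R libraries.

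After LPS, no member was called between TLR4-K730R and TLR4-WT, with 0% of all genes called and 8 members and 7.69% of all genes at an unadjusted p below 0.05. Mcm4 was lower in every TLR4-K730R library, with a log2 difference of -0.74 (SE 0.14) and an adjusted p of 0.105. Ccne1 was at 1.03, 1.11 and 1.78 FPKM beside 2.54, 2.32 and 2.57 FPKM (adjusted p 0.566), and Plk1 at 0.841, 0.937 and 0.829 FPKM beside 1.46, 1.37 and 2.88 FPKM (adjusted p 0.566). The libraries of these 3 genes did not overlap. Of the 45 members, 37 had a difference below zero, with a median of -0.35 beside -0.04 over all genes. The 7 mesothelium and fibroblast markers tested were below zero too, with a median of -0.60, and the 9 with a value summed to between 48.2 and 48.9 FPKM in TLR4-K730R and between 43.8 and 145 FPKM in TLR4-WT LPS libraries. Their part in the member differences was not tested.

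Between TLR4-K810R and TLR4-WT after LPS none was called either, with 0.134% of all genes called and 16 members and 21.8% of all genes at an unadjusted p below 0.05. Cdk1, the kinase of mitotic entry, was at 3.45, 4.53 and 2.76 FPKM beside 1.12, 0.80 and 1.48 FPKM in TLR4-WT, a log2 difference of 1.10 (SE 0.27, adjusted p 0.0458). Tk1 differed by 0.98 (adjusted p 0.0524). Pold1, the catalytic subunit of the lagging strand polymerase, was at 4.86, 5.16 and 4.21 FPKM beside 2.38, 2.47 and 3.53 FPKM (log2 difference 0.61, adjusted p 0.0567). For all 3 genes the TLR4-K810R libraries were higher. The median over members was 0.32 beside 0.11 over all genes, and the mesothelium and fibroblast markers summed to between 103 and 124 FPKM in the TLR4-K810R LPS libraries, with a median log2 difference of 0.24. The part of these cells was not tested.

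The responses to LPS themselves were compared between genotypes. No member was called for TLR4-K730R against TLR4-WT, where 0.0412% of all genes were called, or for TLR4-K810R against TLR4-WT, where 0.124% were. By limma 9 and 10 members had an unadjusted p below 0.05, beside 7.02% and 13.2% of all genes. The 7 mesothelium and fibroblast markers tested were all below zero in both, with medians of -1.42 and -1.76, as were the 4 intestinal epithelium markers tested, with medians of -1.39 and -2.86, and their part in the member values was not tested. Mcm4, Pole and Plk1 had the smallest p for TLR4-K730R, with differences of -0.86, -1.17 and -0.89 and adjusted p of 0.212, 0.513 and 0.532. Pole, the leading strand polymerase, was at 0.171, 0.617 and 0.714 FPKM before and 0.916, 1.11 and 0.886 FPKM after LPS in TLR4-WT. In TLR4-K730R it was at 2.35, 0.677 and 0.76 FPKM before and 0.37, 0.474 and listed at 0 after. For TLR4-K810R the smallest p were those of Ccnd2, which rests on LPS libraries alone, and of Ccna2 and Uhrf1, with differences of -0.85 and -0.89 and adjusted p of 0.235 and 0.238. Ccna2 was at 1.30, 0.60 and 1.76 FPKM in TLR4-WT LPS libraries and at 1.71, 2.02 and 1.94 FPKM in TLR4-K810R LPS libraries, so the 2 genotypes overlapped after LPS while their control libraries did not. Both comparisons of response share the TLR4-WT libraries.

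**Figure D5:**
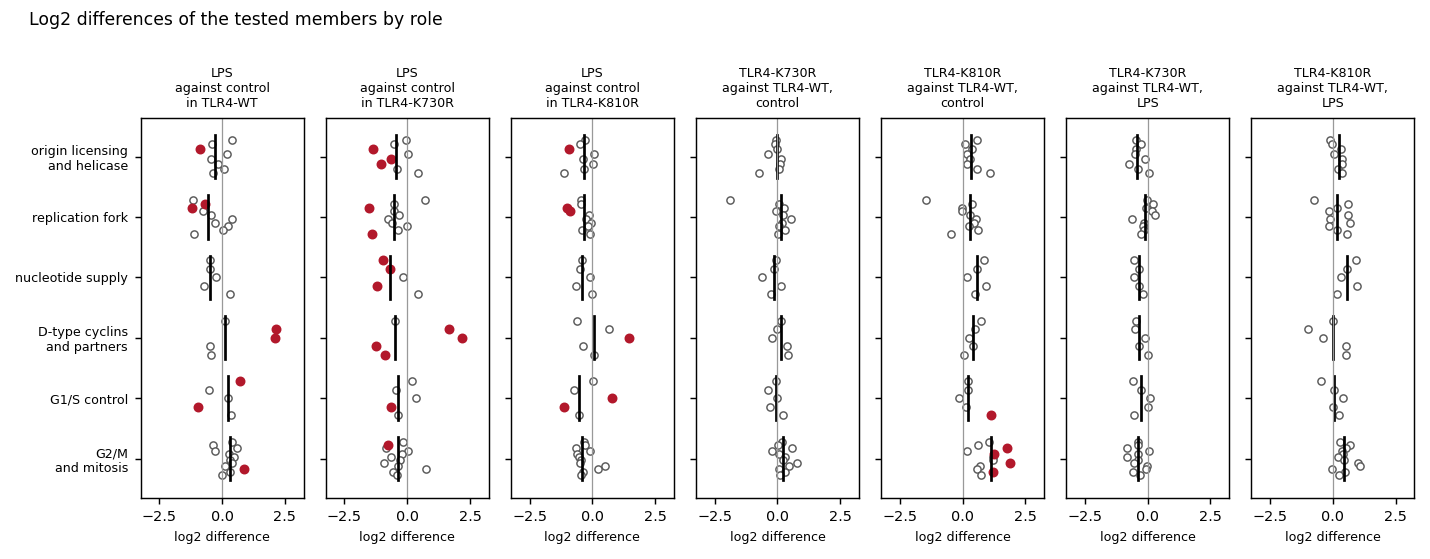
Each panel is 1 comparison, each circle 1 of the 45 tested members placed by role, and the horizontal axis gives the log2 difference on the log2(FPKM + 1) scale. Filled circles have an adjusted p below 0.01, open circles do not, and black bars are role medians, of which the G2/M bar at 1.12 in TLR4-K810R against TLR4-WT control is the farthest to the right. In the LPS panels the filled circles include Ccnd2, E2f2 and Pola1, which passed the filter through a single side and are given no test.

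Promoters are shown because cell cycle genes fall into textbook classes, E2F genes, which are switched on at the start of S phase, and CHR genes, which are switched on for mitosis. RefSeq windows of 300 bases on GRCm38.p6, from 250 before to 50 after a start, were found for 41 of the 51 members. Aurkb, Ccna2, Ccnd1, Ccnd2, Ccne2, Gins1, Gins2, Gmnn, Mcm4 and Pole had no entry. Letters were searched on both strands. The E2F core was spelled TTCCCGC in its most common form. It was also searched as TTGGCGC, and a last form was TTCGCGC. The last 2 forms can share letters on opposite strands. TTTGAA was taken for the CHR element. CCAAT stands for the box that binds NF-Y. The E2F core letters were in 20 of 41 members (48.8%) and in 9.2% of all 27025 genes with a window. They were found in 6 of 8 licensing and 7 of 9 fork genes and in 3 of 11 G2/M genes. The CHR letters were in 8 of 11 G2/M genes (72.7%), beside 26.8% of members and 20.2% of all genes, and each of these 8 also held CCAAT, a pair found in 8.97% of all genes.

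The 100 bases before the start are printed below, 5′ to 3′ along the gene, for Cdc20, Cdk1, Mki67, Uhrf1 and Rrm1, which have a match there. Printed genes were chosen among called members, Ccnb1, Cdk1 and Mcm members. Top2a, Ccnb2, Aurka and Bub1b, which hold CHR letters in their windows, were thus not candidates. Outside its printed stretch the window of Cdk1 also holds E2F core letters. Capitals mark the E2F core, CHR and CCAAT letters on either strand.
Cdc20, chr4:118437344-118437443, minus strand: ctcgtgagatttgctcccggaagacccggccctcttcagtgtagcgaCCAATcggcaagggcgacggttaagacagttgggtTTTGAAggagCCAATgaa
Cdk1, chr10:69352913-69353012, minus strand: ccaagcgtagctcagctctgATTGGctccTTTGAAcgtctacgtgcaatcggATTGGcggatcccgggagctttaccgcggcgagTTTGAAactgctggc
Mki67, chr7:135716380-135716479, minus strand: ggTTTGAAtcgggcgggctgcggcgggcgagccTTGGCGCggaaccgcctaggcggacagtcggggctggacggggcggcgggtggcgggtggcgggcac
Uhrf1, chr17:56303237-56303336, plus strand: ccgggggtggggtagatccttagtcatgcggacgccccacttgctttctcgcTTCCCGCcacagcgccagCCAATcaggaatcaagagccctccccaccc
Rrm1, chr7:102441595-102441694, plus strand: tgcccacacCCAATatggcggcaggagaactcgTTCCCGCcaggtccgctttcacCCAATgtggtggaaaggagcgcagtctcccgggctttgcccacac

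Cdc20 and Cdk1 carry a CHR match with a CCAAT box beside it, and Mki67 carries both a CHR and an E2F match. Uhrf1 and Rrm1 carry an E2F match beside CCAAT. Pcna, Cdk4, Cdk6, Tk1, Dut and Rfc5, which were lower with LPS in at least 1 genotype, held none of the E2F core letters in their windows. Lig1, Mcm3 and Rrm1, also called lower, did hold them, as did Pola1 and E2f2, for which no test of LPS is given. A match is a description of the letters and not evidence of a bound site.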

How the data were processed

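RNA-seq was measured in 18 libraries, and groups and replicate numbers were taken from the labels. The values used here are the FPKM per transcript event that the authors deposited. Read counts were not used, so depth was not assessed, and aligner and quantifier are not given in the sources used here. The build named in the labels is human, but of 14138 Ensembl numbers 14126 are in GENCODE mouse on GRCm38, where 92% of the rows lie on their named gene. For each gene, rows on its strand and within its span were kept, which dropped 6.24% of end FPKM, and its value is the larger of the summed first-exon and the summed last-exon FPKM. Genes with at least 1 FPKM in 3 libraries were tested with limma 3.58.1 (R 4.3.3) on log2(FPKM + 1), with an intensity trend and all 6 groups in the fit, at an adjusted p below 0.01. Members and other lists were chosen with earlier results of these data known. All members could be named. Values in every library are given for called members (up to 6 in each direction with LPS, up to 10 otherwise, or the 3 smallest p), for Mki67, Top2a, Pcna, Ccnd1, Ccnd2, Ccnd3 and Cdkn1a always, and up to 4 other genes in each direction are named. Alternatives were another pseudocount (0.1 or 5), filter, scaling, threshold, weights, row choice, a fit of 2 groups, a replicate block and leaving out each library. The procedure was tested on simulated data.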

Additional observations from a re-analysis of the deposited data

Results flagged for a closer look

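Pole was the only member whose 3 LPS libraries all moved one way in TLR4-WT, above the control libraries, and the opposite way in TLR4-K730R, below them. The difference between the responses was -1.17 on the log2(FPKM + 1) scale, and the limma test of that difference did not pass (adjusted p 0.513). Most Pole values in these groups lay below 1 FPKM, and the highest was that of a single TLR4-K730R control library. How many of all genes moved apart in this way was not counted.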

How the results depend on the processing

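No single value changed sign under any alternative that was run, but under median-of-ratios scaling the split of called members with LPS turned from 4 up and 4 down to 5 and 1 in TLR4-WT and from 2 and 4 to 2 and 1 in TLR4-K810R, and it was 4 and 5 in place of 2 and 12 in TLR4-K730R. The count of called members with LPS ranged over 4 to 7 with 1 library left out in TLR4-WT, 9 to 13 in TLR4-K730R and 4 to 7 in TLR4-K810R, beside 8, 14 and 6. In TLR4-WT it was 4 without control library 3 or LPS library 1 and 5 without control library 1 or 2 or LPS library 3, and in TLR4-K730R it was 9 without LPS library 2. It was 0 to 4 for TLR4-K810R against TLR4-WT control and 0 to 1 after LPS, where the 1 came without TLR4-WT LPS library 3. Keeping genes with a mean of at least 5 FPKM, which tests fewer genes, gave 3, 6 and 3 with LPS and 0 for TLR4-K810R control. Last-exon rows alone gave 4 in TLR4-WT and 9 in TLR4-K730R, and first-exon rows alone 3 for TLR4-K810R control. Median-of-ratios scaling gave 9 in TLR4-K730R and 3 in TLR4-K810R. Library weights gave 13 in TLR4-WT, and no filter gave 3 for TLR4-K810R control. A threshold of 0.05 gave 13 in TLR4-WT and 12 in TLR4-K810R with LPS and 1 for TLR4-K810R against TLR4-WT after LPS. A fit of the 2 groups alone gave 1 for TLR4-K730R and 0 for TLR4-K810R against TLR4-WT control. The member median moved to 1.84 FPKM in TLR4-WT control and 1.42 FPKM in TLR4-K730R LPS under median-of-ratios scaling, and to 1.27, 1.46, 0.921 and 2.26 FPKM in TLR4-WT control, TLR4-K730R control, TLR4-K730R LPS and TLR4-K810R LPS with last-exon rows. Apart from the row, filter and group choices, which change the data used, the cause was not tested. Over 98 calls of single genes, a call was lost in 151 of 1182 values under other alternatives and in 207 of 588 with a library left out.

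With the group means removed, none of 45 same-numbered pairs of libraries from different groups correlated above 0.1 (range -0.32 to 0.0993). Most of these pairs join different genotypes, so whether control and LPS libraries were paired is not known. A fit with the replicate block gave 7, 11 and 5 called members with LPS, 4 for TLR4-K810R against TLR4-WT control and 0 elsewhere.

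The values are FPKM of listed events without counts, so a gene listed at 0 can be a failed estimate, and the precision of low members is not known. Members below 1 FPKM carry little weight on the log2(FPKM + 1) scale.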
